A study of Mus musculus with 235 samples.

Results

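Thrsp, Dio1, Me1 and Thrb, 4 genes of the thyroid hormone pathway out of 18146 measured, were followed in the livers of 31 inbred mouse strains given isoniazid or vehicle. Each gene was read from the probe set that carries its symbol alone, and where a gene had several, the probe set was chosen by its highest mean over all arrays. The 4 genes together have 7 such probe sets. The genes were proposed with isoniazid results of these arrays known, among them the mean fall of Dio1, so that fall is a description and not independent evidence.

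The series asked how the liver of genetically different mice responds to isoniazid, a tuberculosis drug that can injure the liver. Isoniazid animals received 100 mg/kg by oral gavage daily for 3 days. Vehicle animals received sterile water on the same schedule. All animals were females of 8 to 10 weeks, and the left liver lobe was frozen 24 hours after the last dose, with 1 array per animal and 1 animal per array. There were 111 isoniazid arrays and 124 vehicle arrays, with 4 vehicle animals in each strain. Deaths before the end removed 13 isoniazid animals from 9 strains. That left isoniazid groups of 4 animals in 22 strains, of 3 animals in 5 and of 2 animals in 4. The submitters coded 13 strains as developing isoniazid-induced steatosis, a fat accumulation in the liver, and the other 18 as not. Neither time of day nor feeding state at sacrifice is given in the labels used here.

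Thyroid hormone leaves the thyroid mainly as the prohormone thyroxine, and deiodinase enzymes in tissues such as the liver convert it to the active form, triiodothyronine, or inactivate it. Triiodothyronine enters hepatocytes through membrane transporters and binds nuclear receptors that sit on DNA with retinoid X receptors and switch target genes on. Thrb encodes the receptor that carries most of the hormone's action in liver. Dio1, the type 1 deiodinase, is a selenoprotein and is itself a target gene. Me1, cytosolic malic enzyme, makes NADPH for fatty acid synthesis, and Thrsp, also called Spot 14, promotes that synthesis. Both are classic targets of the hormone that also respond to carbohydrate feeding, and Thrsp is known to follow the daily cycle.

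The DNA upstream of Thrsp and Dio1 is shown because these members passed the test of whether the isoniazid minus vehicle difference varied between strains. The sequences are the 250 bases before the annotated start in RefSeq (GRCm38.p6), read 5′ to 3′ on the gene's strand. They are chr7:97417551-97417800 (minus strand) for Thrsp and chr4:107307169-107307418 (minus strand) for Dio1. Capitals mark CCAAT or its reverse complement.

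Thrsp: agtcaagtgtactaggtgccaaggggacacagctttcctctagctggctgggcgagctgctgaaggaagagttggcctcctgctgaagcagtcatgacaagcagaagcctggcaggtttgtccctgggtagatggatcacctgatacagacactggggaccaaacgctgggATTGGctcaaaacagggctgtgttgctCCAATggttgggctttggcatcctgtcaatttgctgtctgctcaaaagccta

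Dio1: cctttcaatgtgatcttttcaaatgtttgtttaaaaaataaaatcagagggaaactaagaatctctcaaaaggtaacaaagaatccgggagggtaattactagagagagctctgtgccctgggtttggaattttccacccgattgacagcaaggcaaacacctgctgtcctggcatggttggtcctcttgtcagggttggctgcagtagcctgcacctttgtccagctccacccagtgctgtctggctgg

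Windows from 250 bases before to 50 bases after each start were searched on both strands for 6 motifs. AGGTCA, the core hexamer bound by thyroid hormone and related nuclear receptors, was in neither the Thrsp nor the Dio1 window, and 16.3% of 32851 RefSeq promoter windows of that length held it. A direct repeat of AGGTCA with 4 bases between, which contains the single hexamer, was in 0.0152% of windows and in none of the members' windows. CCAAT was found at 2 places in the Thrsp window, against a share of 37.4% of all windows with at least 1. No match to any of the 6 motifs was found in the Dio1 window. Me1 and Thrb each have 2 annotated starts. The Me1 window at chr9:86695865-86696164 (minus strand) held GGGCGG at 4 places, a motif present in 35.7% of windows, and the window at chr9:86687228-86687527 (minus strand) held CCAAT at 1. The Thrb window at chr14:17660710-17661009 (plus strand) held AGGTCA at 1 place and GGGCGG at 3. The Thrb window at chr14:17981394-17981693 (plus strand) held 1 CACGTG, a clock and carbohydrate response type motif found in 7.15% of windows, and 1 TATAAA, found in 13.6%. These matches are letters in a window and not binding sites shown by data. Only exact matches were counted, so a window without a match may hold variant sites, and DNA outside the windows was not searched.

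Over the 235 arrays the medians of the log2 values ran from 3.96 to 4.21. On 21 arrays, 10 from isoniazid and 11 from vehicle animals, the values were spread less widely (SD 2.10 to 2.20) than on the others (2.23 to 2.35). The 8 hepatocyte markers averaged 13.00 under isoniazid and 13.01 under vehicle, near the top of the scale. The number of arrays, not a read depth, limits the precision. The labels name separate animals as replicates.

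Dio1 fell under isoniazid. Over animals its log2 value had a lowest of 4.21, a median of 8.60 and a highest of 10.86 under isoniazid, against 5.70, 9.71 and 11.26 under vehicle. The ranges of single animals overlapped widely, since strains differ in level. Strain means averaged 8.39 ± 1.58 under isoniazid and 9.24 ± 1.26 under vehicle (SD, n = 31 strains), and the mean within-strain difference was -0.85 on the log2 scale (SE 0.13, 95% interval -1.10 to -0.60), a 1.80-fold fall. It was below 0 in 28 of 31 strains, and limma gave an adjusted p of 3.98e-06. Among all genes 9.85% were called lower and 10.2% higher by the same test, and the median gene's change was 0.00096. In bulk liver, fewer cells of a type and less RNA per cell cannot be told apart.

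Me1 was lower by a smaller amount. Animals ranged from 7.53 through a median of 9.22 to 10.47 under isoniazid, and from 7.61 through 9.41 to 10.30 under vehicle, so the groups overlapped almost entirely. The strain means averaged 9.21 ± 0.40 under isoniazid and 9.35 ± 0.38 under vehicle (SD, n = 31), a difference of -0.15 (SE 0.05) with 21 strains below 0 and an adjusted p of 0.0238 by limma. This call was lost with scan date as a term (-0.13, adjusted p 0.068), with the mean of the gene's probe sets (-0.13, adjusted p 0.0517), and without the animals numbered 1 in each group (-0.07, adjusted p 0.41). The second Me1 probe set, whose mean of 9.278 lay just below the 9.282 of the chosen one, gave -0.11.

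Thrsp did not move in a common direction. Animals ranged from 6.33 through a median of 9.27 to 11.68 under isoniazid, and from 6.17 through 8.99 to 11.58 under vehicle. Strain means averaged 9.16 ± 1.17 under isoniazid and 8.93 ± 1.18 under vehicle (SD, n = 31), and the mean difference of 0.23 (SE 0.21, interval -0.20 to 0.66) had an adjusted p of 0.521 by limma, with 17 strains above 0 and 14 below. Thrb, the receptor, averaged 4.15 ± 0.23 under isoniazid and 4.08 ± 0.22 under vehicle (SD, n = 31), a difference of 0.07 (SE 0.05, adjusted p 0.391). Thrb was the dimmest member. Its mean of 4.11 stood at the 34.6th percentile of genes, where the RMA summary compresses differences. Within groups, Thrb values ran against the spread of the array (r = -0.74 over 235 arrays), while Me1, Thrsp and Dio1 had r of 0.43, 0.26 and 0.18. The part of array spread in these values was not tested further.

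The mean of Thrsp hid large and opposite isoniazid minus vehicle differences in single strains. Time of day and feeding state at sacrifice are not known for these groups, and their part was not tested. In AKR/J, Thrsp was 9.30, 9.62, 10.56 and 11.00 under isoniazid, against 7.04, 7.58, 7.64 and 9.09 under vehicle. Every isoniazid animal lay above every vehicle animal, and the difference was 2.28 (adjusted p 0.00332 by limma, adjusted over genes and strains together). In BALB/cJ the order was the opposite, with 7.28, 8.21, 8.51 and 8.65 under isoniazid, against 10.36, 10.72, 10.78 and 10.89 under vehicle, a difference of -2.53 (adjusted p 0.00066), also without overlap.

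Thrsp passed this test as higher in 3 strains and as lower in 2, when 0.998% of all tests of a gene in a strain were called higher and 0.598% lower. Besides AKR/J, it was higher in C57BLKS/J (2.17, adjusted p 0.00649) and SWR/J (1.93, adjusted p 0.0231). Besides BALB/cJ, it was lower in NZW/LacJ (-2.18, adjusted p 0.00598). In NZW/LacJ the values were 6.99, 8.71, 8.84 and 8.92 under isoniazid, against 9.50, 10.61, 11.01 and 11.08 under vehicle. Among the strains that did not pass, 129S1/SvImJ had -1.72 (adjusted p 0.0594), A/J had 1.92 with 2 isoniazid animals (adjusted p 0.106) and CE/J had -0.00046. The interaction of strain and treatment for Thrsp had F = 5.80 (adjusted p 8.5e-12 by limma), above that of 99.8% of genes, when 17% of genes passed. Thrsp kept this call without the animals numbered 2, where F was 3.99, but no strain was then called higher.

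**Figure D1:**
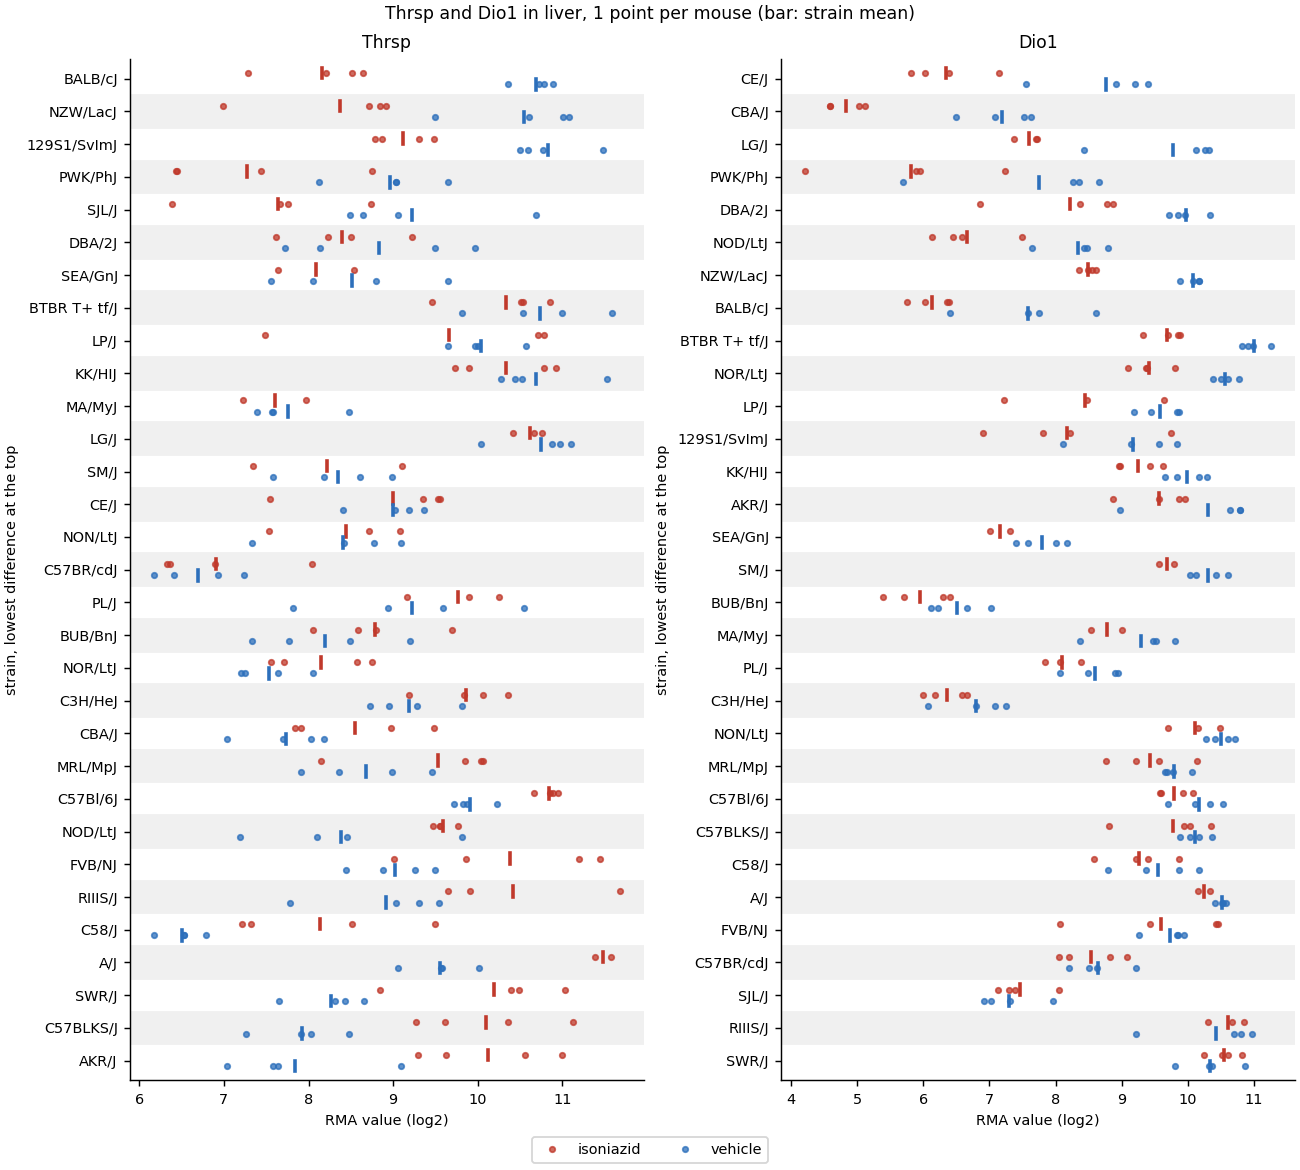
Log2 RMA values of Thrsp (left) and Dio1 (right), 1 point per mouse, with isoniazid in red above vehicle in blue in each strain and a vertical bar at the group mean. Strains are ordered by the difference, from BALB/cJ (-2.53) to AKR/J (2.28) for Thrsp and from CE/J (-2.42) to SWR/J (0.21) for Dio1.

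Dio1 was called lower in 8 strains and higher in 0, when 0.598% of all tests of a gene in a strain were called lower and 0.998% higher. In CE/J it was 5.82, 6.02, 6.39 and 7.14 under isoniazid, against 7.55, 8.92, 9.21 and 9.39 under vehicle, a 5.37-fold lower level (-2.42, adjusted p 7.67e-06). In CBA/J it was 4.59, 4.59, 5.03 and 5.11 under isoniazid, against 6.49, 7.09, 7.52 and 7.63 under vehicle (-2.35, adjusted p 1.65e-05). Both strains separated without overlap. The other called strains were LG/J (-2.19), PWK/PhJ (-1.92), DBA/2J (-1.75), NOD/LtJ (-1.67), NZW/LacJ (-1.58) and BALB/cJ (-1.46). PWK/PhJ was the called strain in which the groups overlapped, with 4.21, 5.89, 5.94 and 7.24 under isoniazid, against 5.70, 8.26, 8.35 and 8.66 under vehicle.

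The 3 strains in which Dio1 was not lower were SWR/J (0.21), RIIIS/J (0.19) and SJL/J (0.17), none past the test. In SWR/J the animals had 10.25, 10.52, 10.60 and 10.82 under isoniazid, against 9.80, 10.32, 10.36 and 10.86 under vehicle, an overlapping pair of groups. The interaction for Dio1 had F = 3.36 (adjusted p 1.2e-05 by limma), above 97.7% of genes. It missed the threshold without the animals numbered 1 (F = 1.99, adjusted p 0.0513), and 5 strains were then called lower, as also without those numbered 3 or 4. BALB/cJ and NZW/LacJ were called lower for both Dio1 and Thrsp. How often other pairs of genes share called strains was not computed.

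Me1 was called lower in NOR/LtJ, with 8.67, 8.83, 9.08 and 9.25 under isoniazid, against 9.64, 9.65, 9.85 and 9.95 under vehicle (-0.81, adjusted p 0.00944). Thrb was called higher in the same strain, with 3.96, 4.13, 4.90 and 4.97 under isoniazid, against 3.55, 3.63, 3.75 and 3.90 under vehicle (0.79, adjusted p 0.0312). Of all tests of a gene in a strain, 0.598% were called lower and 0.998% higher. Neither pair of groups overlapped. Both calls were lost without the 21 arrays of narrow spread. The interaction of strain and treatment did not pass for Me1 (F = 1.81, adjusted p 0.0544) or Thrb (F = 1.66, adjusted p 0.103). It passed for Me1 in 14 of 42 alternatives (adjusted p over all 42 from 0.0216 to 0.304) and for Thrb in 0 of 41 (from 0.0687 to 0.628).

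**Figure D2:**
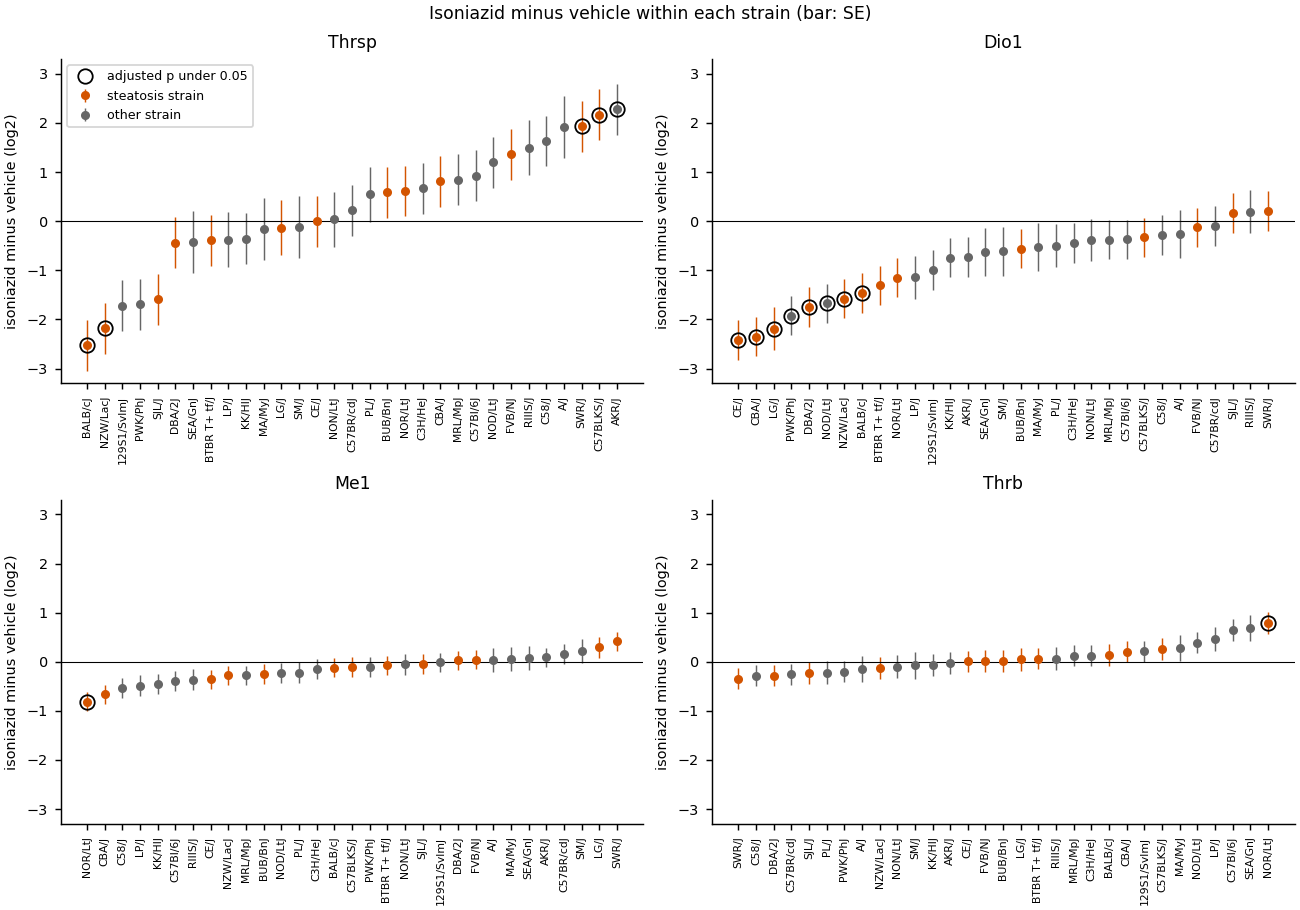
Isoniazid minus vehicle in log2 units for each strain, with the SE of the limma fit as bars, for Thrsp, Dio1, Me1 and Thrb on a common scale. Steatosis strains are orange, other strains grey, and a ring marks an adjusted p under 0.05; Thrsp has ringed strains on both sides of 0, and Dio1 has 8 below it.

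No member passed the test of the steatosis code against the response. Dio1 differed by -1.14 ± 0.93 in the 13 steatosis strains and by -0.64 ± 0.52 in the 18 other strains (SD), a gap of -0.50 (SE 0.24) with an unadjusted p of 0.0459 and an adjusted p of 1.00 by limma. Dio1 was called lower in 6 of 13 steatosis strains and 2 of 18 other strains, where 0.712% and 0.516% of all tests of a gene in a strain were called lower. Isoniazid animals had died in 1 steatosis strain and 8 other strains, so groups of under 4 isoniazid animals lay mostly among the other strains. The gaps of Thrsp (-0.37), Me1 (-0.00078) and Thrb (-0.05) were smaller. Over all genes 0% passed this test, and 491 genes had an unadjusted p under 0.05. The Thrsp calls fell on both sides, with 2 higher and 2 lower in steatosis strains and 1 higher in the others, where 1.23% and 0.828% of all tests were called higher.

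Vehicle levels differed between strains for all 4 members. The F test over vehicle groups gave 19.6 for Dio1 (adjusted p 3.32e-40), 10.4 for Thrsp (1.24e-24), 7.15 for Me1 (4.27e-17) and 2.02 for Thrb (0.00579), all adjusted p by limma, and 53.4% of genes passed it. The Thrb call was lost without the animals numbered 4 (F = 1.32, adjusted p 0.246). For the steatosis strains minus the others, the vehicle gaps were 0.31 for Thrsp, -0.16 for Dio1, 0.05 for Me1 and -0.02 for Thrb. None passed, and over all genes 0% did, with 737 at an unadjusted p under 0.05.

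Vehicle Dio1 was lowest in BUB/BnJ, C3H/HeJ, CBA/J and SJL/J, with strain means of 6.51, 6.80, 7.19 and 7.30, and highest in BTBR T+ tf/J at 11.00. C3H mice are known for low hepatic type 1 deiodinase. The C3H/HeJ animals had 6.00, 6.18, 6.58 and 6.66 under isoniazid, against 6.07, 6.79, 7.08 and 7.25 under vehicle, an overlap and a difference of -0.45. Vehicle Thrsp ran from 6.50 in C58/J to 10.84 in 129S1/SvImJ, vehicle Me1 from 8.54 in RIIIS/J to 10.16 in LP/J, and vehicle Thrb from 3.69 in NOD/LtJ to 4.52 in NZW/LacJ. In the order of strains no 2 neighbours differed beyond their spread for any member. Strains had to lie 0.81 apart for Dio1, 1.04 for Thrsp, 0.40 for Me1 and 0.43 for Thrb. A sequence variant under a probe lowers the signal in every animal of a strain, and its part in the strain levels was not tested.

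The order of strains under isoniazid could be set against their order under vehicle, which comes from other animals of the same strain. For Dio1 the strain means kept their order, with r = 0.88 and rho = 0.88 over 31 strains (permutation p 1e-05 each, the smallest 100000 permutations can give, 2e-05 and 4e-05 adjusted over the 4 genes). Without the 2 farthest strains r was 0.87. For Me1 r was 0.74 and rho 0.67 (adjusted p 2e-05 and 6e-05, r 0.64 without the 2 farthest). For Thrsp r was 0.42 and rho 0.44 (adjusted p 0.0247 and 0.0181), and r was 0.29 without the 2 farthest. Among the 1858 genes whose vehicle strain means vary at least as much as those of Me1, the median r was 0.81, and the value of Thrsp was above that of 4.52% of them. Thrb had r = 0.16 and rho = 0.17 (adjusted p 0.387 and 0.366).

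**Figure D3:**
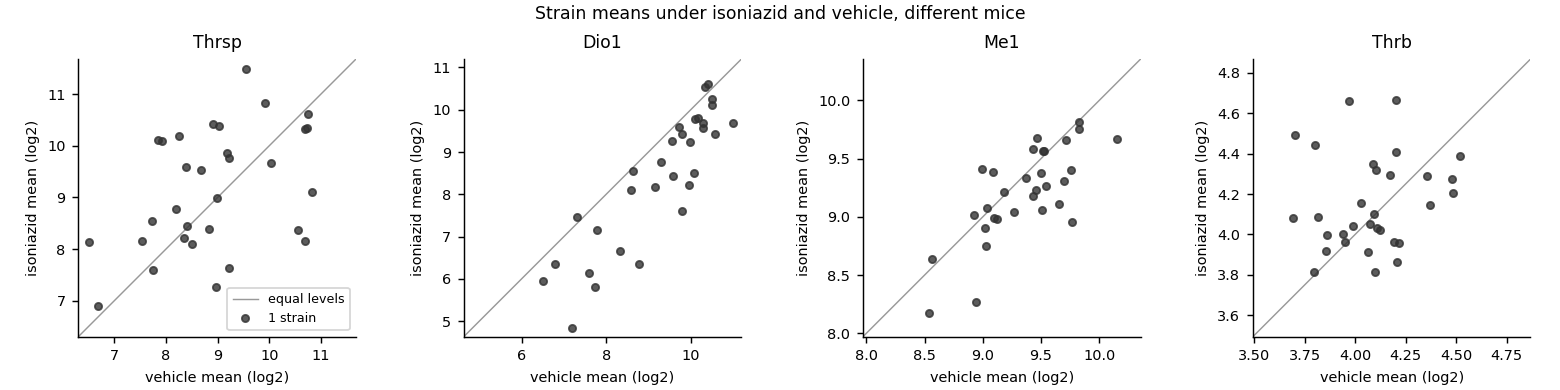
Isoniazid mean against vehicle mean in log2 units, 1 point per strain, with the grey line at equal levels. Most Dio1 points lie below the line and follow it (r = 0.88), while Thrsp points scatter on both sides (r = 0.42).

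Animals of 1 group also differed more in Thrsp and Dio1 than in most genes. The SD between animals of a group, pooled over 173 residual degrees of freedom, was 0.74 for Thrsp and 0.58 for Dio1, above 99.7% and 98.9% of genes, against a median of 0.25 for all genes. It was 0.28 for Me1 and 0.31 for Thrb. Within groups the values of Dio1 and Me1 had r = 0.35 over arrays, and those of Thrsp and Dio1 r = 0.24. Of the 12 relations between members over strains, none passed by Pearson r after adjustment. The differences of Thrsp and Dio1 had r = 0.40 (permutation p 0.0242, adjusted 0.145) and rho = 0.51 (p 0.00367, adjusted 0.044), with r = 0.34 without the 2 farthest strains. Those of Me1 and Thrb had r = -0.41 (adjusted p 0.145). The vehicle means of the members had r between -0.08 and 0.24.

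Scan date is the one batch the labels give, and over the series each date held both treatments. Within single strains the dates could differ between treatments, and in BALB/cJ no date held both. Deviations of animals from the midpoint of their strain's isoniazid and vehicle means were averaged by date and treatment. The midpoints come from all dates, so the 10 dates are not separate estimates. By this measure Dio1 was lower under isoniazid in 10 of 10 dates, by -1.17 to -0.41. Me1 was lower in 9 of 10 dates (-0.31 to 0.10). Thrsp was higher in 7 and lower in 3 (-0.59 to 0.90), and Thrb was higher in 7 and lower in 3 (-0.28 to 0.31).

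The other probe sets of Thrsp and Me1 bear on how firmly their levels can be read. Dio1 and Thrb each have 1 probe set, so they lack such a check. A further Thrsp probe set, at a mean of 7.98, varied with the chosen one over vehicle strain means (r = 0.997) and strain differences (r = 0.993), and its mean difference was also 0.23. The remaining Thrsp probe set, at 6.30, had r of 0.50 and 0.17 with the chosen one, varied little (SD 0.15 over vehicle strains) and gave -0.05, with the same sign in 16 of 31 strains. The Me1 probe sets had r of 0.69 over vehicle means and 0.82 over differences, and the same sign in 26 strains.

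Other parts of the hormone pathway were described from lists of its genes. Of 18 receptors and coregulators found of 20 listed, 0 rose and 2 fell, against 10.2% and 9.85% of all genes. Thra, the other thyroid hormone receptor gene, averaged 6.34 ± 0.20 under isoniazid and 6.50 ± 0.17 under vehicle (SD, n = 31), a fall of 0.16 with an adjusted p of 8.51e-05 by limma. Kat2b, an acetyltransferase coactivator, fell by 0.11. The median of the list was -0.04. The corepressor enzyme Hdac3 (0.07) and the coactivator Ncoa1 (-0.06) did not pass.

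A further list joined deiodinases, other selenoproteins and genes of selenoprotein synthesis. Of its 19 genes found, 1 rose and 4 fell (3 rose without the narrow arrays), against 10.2% and 9.85% of all genes. The fall of Dio1 was the largest. Txnrd2, the mitochondrial thioredoxin reductase, fell by 0.27 in 28 strains, Selenow, a small selenoprotein, by 0.19 and Trnau1ap, a selenocysteine tRNA associated protein, by 0.12. Txnrd1, the cytosolic thioredoxin reductase, rose by 0.12, a call lost with the mean of probe sets, where 0 of the list rose. Dio2, the type 2 deiodinase, was dim in liver (3.19 ± 0.17 under isoniazid and 3.20 ± 0.11 under vehicle, SD, n = 31) and differed by -0.0053. Dio3, which inactivates the hormone, was not analysed here.

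Of 10 membrane transporters 2 rose and 2 fell, against 10.2% and 9.85% of all genes. Slco1a4, an organic anion transporter that carries thyroxine, averaged 9.45 ± 0.46 under isoniazid and 8.92 ± 0.58 under vehicle (SD, n = 31) and was higher in all 31 strains, by 0.53 on average (adjusted p 2.55e-09 by limma). Slco1a1 of the same family rose by 0.38. Slco1b2 fell by 0.30, and Slc3a2, the heavy chain shared by amino acid and thyroid hormone carriers, by 0.27 in 28 strains. Slc16a10, a triiodothyronine exporter, differed by 0.0033.

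Of 8 conjugating enzymes found of 11 listed, 2 rose and 3 fell, against 10.2% and 9.85% of all genes. The median of the list was 0.03. The sulfotransferases moved in opposite directions. Sult1a1 rose by 0.38 in 30 strains and Sult1b1, which sulfates thyroid hormones, by 0.30, while Sult1c2 fell by 0.74. The glucuronosyltransferases Ugt2b1 and Ugt2b35 fell by 0.26 and 0.19. Of 3 plasma carriers, Serpina7, thyroxine-binding globulin, rose by 0.38 from a dim probe set (3.45 under isoniazid and 3.07 under vehicle), Ttr, transthyretin, differed by -0.06 (adjusted p 0.0588) and Alb, albumin, by -0.0092.

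Of 19 liver genes known to be raised by thyroid hormone, 3 rose and 4 fell, against 10.2% and 9.85% of all genes. Dio1 and Me1 are among those that fell, and Thrsp and Thrb among the 12 that did not pass. Klf9, a transcription factor that responds directly to the hormone, averaged 11.84 ± 0.27 under isoniazid and 12.07 ± 0.21 under vehicle (SD, n = 31), a fall of 0.23 in 27 strains. Pdk4, which blocks pyruvate oxidation and rises in fasting, fell by 0.60. Acaca and Fasn, enzymes of fatty acid synthesis, rose by 0.26 and 0.27, and Cpt1a, the gate of mitochondrial fat oxidation, by 0.24. Fasn lost its call without the strains in which animals died (0.21, adjusted p 0.123). Gpd2, mitochondrial glycerol phosphate dehydrogenase, differed by 0.05. The median difference of the list was 0.07.

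**Figure D4:**
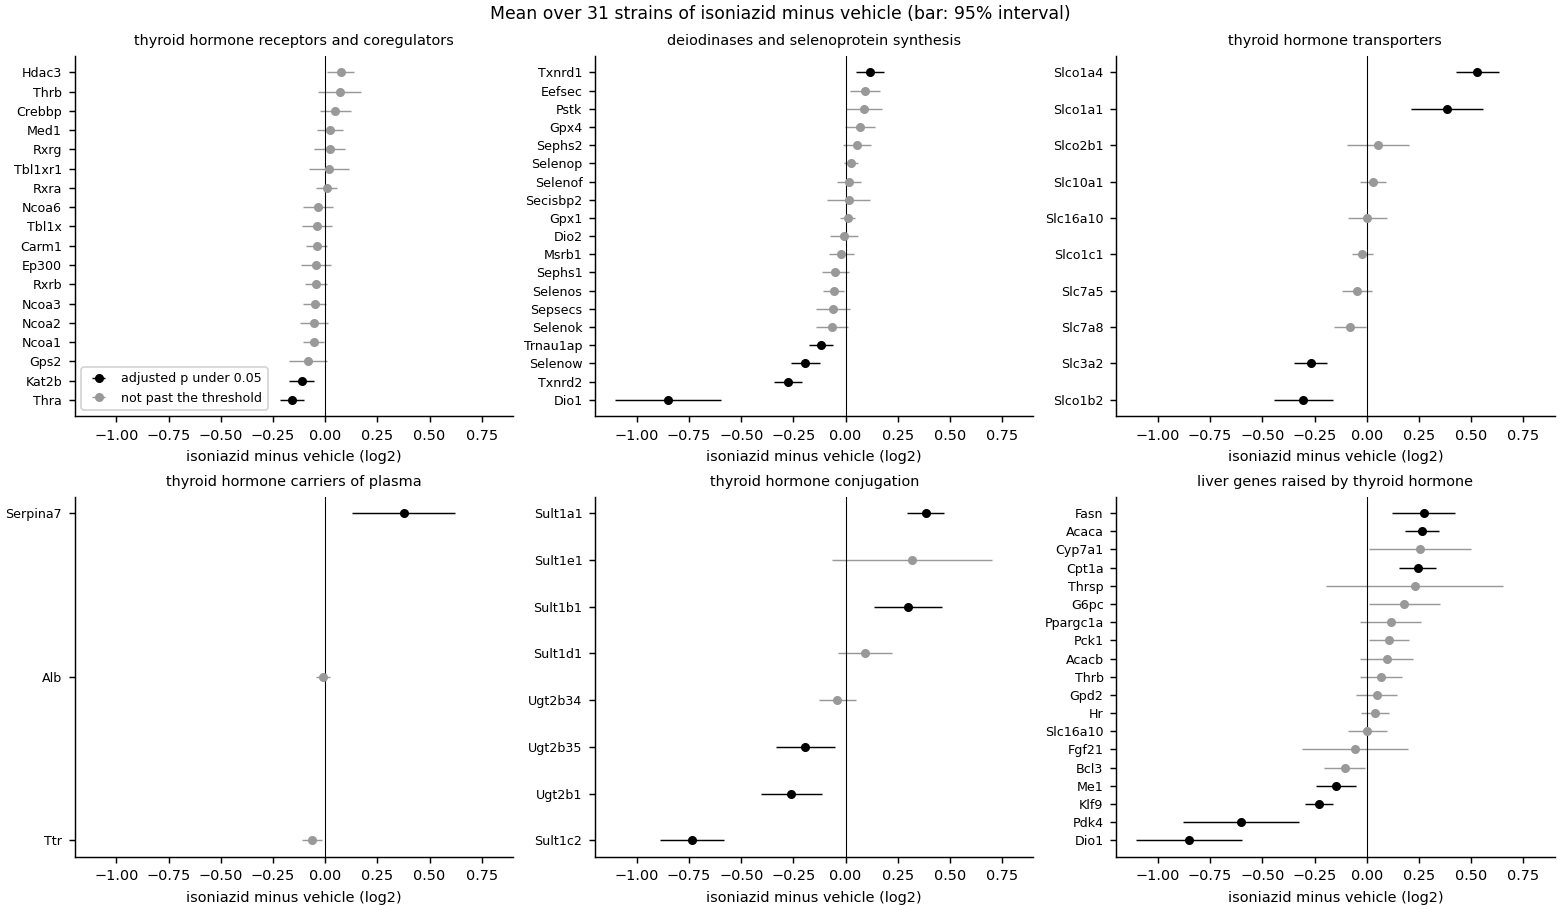
Mean over 31 strains of isoniazid minus vehicle in log2 units, with 95% intervals, for 6 lists of thyroid hormone genes. Black points have an adjusted p under 0.05 and grey points do not; Dio1 lies farthest to the left at -0.85.

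Me1 fell, a call lost in 3 of 45 alternatives, while most of the enzymes around it did not. Of 16 genes found of 17 listed for NADPH production and malate shuttles, 9 rose and 2 fell, against 10.2% and 9.85% of all genes. The list includes mitochondrial enzymes. The 2 that fell were Me1 and Nnt, the mitochondrial transhydrogenase. Slc25a11, the oxoglutarate and malate carrier, rose by 0.28 in 30 strains, Mdh2, mitochondrial malate dehydrogenase, by 0.28 in 29, and the aspartate aminotransferases Got1 and Got2 by 0.64 and 0.14. The median of the list was 0.12.

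Of 19 lipogenic genes listed beside Thrsp (Thrsp included), 5 rose and 3 fell, against 10.2% and 9.85% of all genes. Scd1, the stearoyl-CoA desaturase, averaged 10.96 ± 0.97 under isoniazid and 12.45 ± 0.73 under vehicle (SD, n = 31), and was lower in 30 strains (adjusted p 1.2e-08 by limma). The elongases Elovl6 and Elovl5 rose by 0.58 and 0.32. Mlxipl, the carbohydrate response factor ChREBP, fell by 0.18. Srebf1 (0.16, adjusted p 0.135) and Mid1ip1, the paralogue of Thrsp (0.13, adjusted p 0.199), did not pass.

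Strain by strain, Thrsp followed several lipogenic genes. The relations of Thrsp with 18 lipogenic and 15 clock genes were added after the data were examined, over vehicle means and over differences, 66 in all. The difference of Thrsp had r = 0.70 with that of Fasn (rho 0.64, adjusted p 8.8e-05 and 0.000726 by permutation, r 0.64 without the 2 farthest strains), 0.63 with Scd1, 0.61 with Dgat2, which makes triglyceride, and 0.58 with Mid1ip1. It ran against Insig2, which retains the lipogenic factor SREBP in its inactive place (r = -0.48). Without the 2 farthest strains r was 0.48 for Scd1, 0.54 for Dgat2, 0.54 for Mid1ip1 and -0.31 for Insig2. In all, 7 of 18 were positive and 1 negative by adjusted p, and over vehicle means 5 and 2. The share of all genes that pass with Thrsp was not computed, so these counts cannot be read as an excess of lipogenic genes. The highest vehicle value was Dgat2 (r = 0.78) and the lowest Insig2 (r = -0.70). Elovl6, which rose in 30 strains, had r = 0.02 with the Thrsp differences.

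Thrsp also varied with the clock genes, whose level depends on time of day. Over vehicle means, 8 of 15 clock genes were positive with Thrsp and 5 negative, and over differences 9 and 4. The share of all genes that pass with Thrsp was not computed, so these counts cannot be read as particular to clock genes. Genes outside both lists reached like values, such as Narf (r = 0.80 over vehicle means) and Ropn1l (r = 0.88 over differences). The lowest r of any gene with Thrsp over vehicle means was that of Pdk4 (-0.82). Tef, a clock output factor, had r = 0.81 over vehicle means (rho 0.77, adjusted p 8.25e-05 by permutation, r 0.75 without the 2 farthest strains), and Per3 and Dbp had r = 0.80 and 0.75. The transcription factors of the opposite phase, Nfil3, Arntl and Npas2, had r of -0.79, -0.73 and -0.71. Over differences Ciart, a clock repressor, had r = 0.77, Dbp 0.70 and Per3 0.69, against -0.57 for Nfil3 and -0.54 for Arntl. With scan date as a term the r of Thrsp and Tef over vehicle means was 0.83, and that of Thrsp and Ciart over differences was 0.79. Vehicle means and differences share the vehicle animals, so these are not separate findings. Of the 15 clock genes themselves 0 rose and 3 fell over strains, against 10.2% and 9.85% of all genes. Hlf fell by 0.23, Cry1 by 0.23 and Per1 by 0.21. Hlf passed in all 45 alternatives, while Cry1 lost its call in 21 of 45 and Per1 in 26 of 45. The list's mean level ran from 6.11 to 6.78 under isoniazid and from 6.16 to 6.85 under vehicle over strains. The part of time of day or feeding in the Thrsp differences was not tested.

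**Figure D5:**
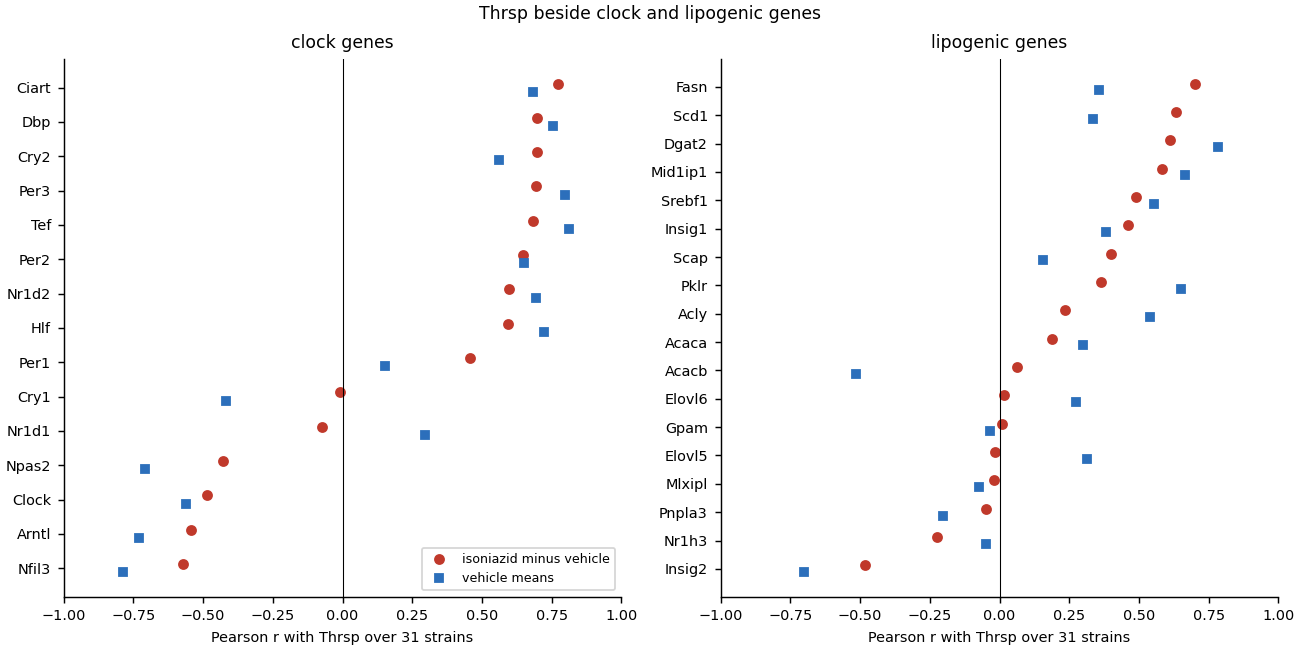
Pearson r of Thrsp with each of 15 clock genes and 18 lipogenic genes over 31 strains, red circles for isoniazid minus vehicle and blue squares for vehicle means. Ciart, Dbp, Per3 and Tef lie to the right in both measures and Nfil3 and Arntl to the left, while the lipogenic genes spread from Insig2 (-0.48) to Fasn (0.70) in the differences.

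The genes most like each member were taken by Pearson r over 31 strains, as a description. For Thrsp they were Tef (0.81), Narf (0.80) and Per3 (0.80) over vehicle means, and Ropn1l (0.88), Hnmt (0.86) and Pdk1 (0.85) over differences. For Dio1 they were Kif26a (0.61), Cadm4 (0.60) and Stpg3 (0.59) over vehicle means, and Ugt3a1 (0.72), Nsa2 (0.67) and 9030619P08Rik (0.67) over differences. The highest r of Dio1 was thus lower than that of Thrsp in both measures. Me1 came closest to Kirrel (0.69) and Lonp2 (0.69), and Thrb to Rnft2 (0.82) and A830082N09Rik (0.88). Kirrel, Rnft2 and A830082N09Rik were dim, with vehicle means of 3.40, 3.53 and 3.42, as was Kif26a at 3.72. The part of array spread in these r was not tested.

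Of 10 macrophage markers 7 fell and 0 rose, against 9.85% and 10.2% of all genes, Csf1r by 0.28 and Cd5l by 0.28 among them, and 4 fell without the narrow arrays, 1 without the animals numbered 1 and 2 without those numbered 2. The mean level of that list ran from 6.08 to 9.13 under isoniazid and from 6.44 to 8.80 under vehicle over strains. Of 8 endothelial markers 2 fell, Stab2 by 0.30 and Kdr by 0.13, of 7 stellate cell markers 1, Reln by 0.15, of 5 bile duct markers 1, Sox9 by 0.14, of 6 lymphocyte markers 1, Ms4a1 by 0.13, and of 3 red cell markers 1, Alas2 by 0.21. Of these, Reln lost its call in 22 of 45 alternatives, Kdr in 5 of 45, Alas2 in 3 of 45 and Ms4a1 in 2 of 44. Of the 8 hepatocyte markers, Cps1 rose by 0.17 and Hnf4a fell by 0.20 in all 31 strains. CAR and PXR are receptors for drugs that also regulate the conjugation of thyroid hormone. Of 14 genes listed as their targets, the receptors' own genes included, 6 rose and 0 fell (3 rose without the animals numbered 2). Aldh1a7 was up by 0.59 and Cyp2b10 by 0.87. The part of cell types or of CAR and PXR in the levels of the 4 members was not tested.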

How the data were processed

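Each deposited value is a log2 level of a probe set on an Affymetrix mouse array. The submitters' processing notes name RMA and Affymetrix Power Tools. No version or genome build is given in the sources used here. Because RMA equalises the distributions of arrays, it removes any shift common to all genes, and it compresses low values.

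Of 44721 probe sets, 34717 carried 1 gene symbol in the platform annotation, 872 several, 9072 had none listed and 60 were controls. Genes (18146) took their highest-mean probe set, with no filter on dim genes. Entrez numbers matched 34514 probe sets to a GRCm38.p6 gene table, and 0 symbols changed. Of 203 list entries 188 were found.

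Tests used limma 3.58.1 in R 4.3.3, two-sided, with Benjamini-Hochberg adjustment over all genes and a call at an adjusted p under 0.05. Effects over strains were tested on the 31 differences of strain means. Strain levels, interactions and within-strain effects came from a fit of 62 groups with animals as replicates. The fits were tested on simulated data. Correlations over strains used 100000 permutations in Python 3.11.15.

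The members and lists were chosen with earlier results of these data known. Named genes are the members, up to 4 per list by the absolute t, a fixed set of pathway genes and the 3 nearest genes per member, and further passing list genes named to complete a count of 5 or fewer. Dgat2, Insig2 and the clock genes beside Thrsp were named after their values were seen. The alternatives were scan date, array centring, probe set averaging, a filter at the 40th percentile, strain weights, animals as replicates, and leaving out arrays, strains or animals.

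Arrays were checked for copies (0 pairs). The 111 pairs of animals with the same number in a strain had a median r of -0.02 between their deviations (23 were over 0.1), so numbers do not pair animals.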

Additional observations from a re-analysis of the deposited data

Results flagged for a closer look

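The 4 genes were each tested in the 53 groups of 4 animals of a strain and treatment. In 15 of these 212 tests, 1 animal lay farther from the other 3 than Dixon's 95% limit allows. Chance alone flags about 1 in 20, and the 4 genes share the same animals. All values are log2. For Dio1 these were vehicle animals, PWK/PhJ animal 2 at 5.70, LG/J animal 4 at 8.42, AKR/J animal 2 at 8.98, RIIIS/J animal 2 at 9.21 and FVB/NJ animal 1 at 9.26. Each was below the rest of its group. For Thrsp they were isoniazid animals, NZW/LacJ animal 2 at 6.99, CE/J animal 3 at 7.54 and MRL/MpJ animal 1 at 8.15. For Me1 they were the isoniazid animals 129S1/SvImJ animal 4 at 10.47 and C57BR/cdJ animal 4 at 9.31. For Thrb they were 129S1/SvImJ isoniazid animal 2 at 4.64 and the vehicle animals A/J animal 2 at 4.21, C57BLKS/J animal 2 at 3.29, NON/LtJ animal 2 at 3.83 and SJL/J animal 4 at 4.71.

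The isoniazid minus vehicle difference varied between strains by the interaction test for Thrsp (F = 5.80) and Dio1 (F = 3.36). The LG/J and PWK/PhJ animals above belong to vehicle groups against which Dio1 was called lower, and the NZW/LacJ animal to a group in which Thrsp was called lower.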

How the results depend on the processing

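The mean fall of Dio1 passed in all 45 alternatives (-0.92 to -0.79). The Thrsp interaction passed in all 42 (F 3.99 to 6.29), and its mean effect in none of 45 (0.08 to 0.32). With animals in place of strains as replicates, 35 genes passed the steatosis comparison and 1957 the vehicle comparison. The Me1 effect was -0.13 both with scan date as a term and with the mean of probe sets. Its interaction passed with F = 1.94 with scan date, 1.95 with the mean of probe sets, 1.81 above the 40th percentile, 1.84 with a trended, robust fit, and with 10 of the strains left out in turn. The cause was not tested.

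Values near 0 that changed sign had no call. The Me1 steatosis gap became 0.076 with scan date, 0.0095 with strain weights and 0.0052 without strains with deaths, and the Thrb gap 0.016 without narrow arrays. Dio2 became 0.0049 with arrays centred, 0.0010 with probe sets averaged and 0.015 without deaths, Slc16a10 -0.0019 with weights and -0.013 without deaths, and Alb 0.0010 with arrays centred. Correlations became 0.047 (Me1 and Thrb, vehicle) and 0.012 (Thrsp and Me1, differences) without narrow arrays, and -0.020 (Thrsp and Thrb, differences) without PWK/PhJ.

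Shared animal numbers did not pair animals. With the replicate block Dio1 had -0.85, Thrsp 0.22, Dio2 0.00080 and Slc16a10 -0.0016, and 3445 genes passed over strains, against 3636 without it. No call of a member changed, while Kdr and Reln missed the threshold.

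Leaving out 1 animal number or 1 strain at a time, the effect over strains ran from -0.19 to -0.070 for Me1, -0.026 to 0.0075 for Dio2, -0.012 to 0.021 for Slc16a10 and -0.015 to 0.0038 for Alb. The steatosis gap ran from -0.076 to 0.088 for Me1 and -0.11 to 0.018 for Thrb, and the vehicle gap from -0.31 to 0.062 for Dio1 and -0.059 to 0.042 for Thrb, with 0 to 1 genes passing. The vehicle F of Thrb ran from 1.32 to 2.33. The interaction F ran from 1.99 to 3.79 for Dio1 and from 1.46 to 2.03 for Me1, with 1313 to 3277 genes passing. Calls within strains ran from 5002 to 6538, against 8981 with all animals. The number of arrays limits the precision.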
